A study of Mus musculus with 23 samples.

Results

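The genes described here encode enzymes that methylate lysine 9 of histone H3 (H3K9), HP1 proteins that bind this mark, and TRIM28, a scaffold protein. They are Ehmt1, Ehmt2, Setdb1, Suv39h1, Suv39h2, Trim28, Cbx1, Cbx3 and Cbx5, 9 of the 23363 gene names with a usable value, and were chosen by name for their function. RNA-seq was performed on mouse embryonic stem cells (ESCs) of a line given as MS12 KDM2Bfl/fl. There were 3 samples labelled untreated and 3 labelled as treated with 4-hydroxy tamoxifen for 72 hr at 800 nM (the text of the series gives the same figure in µM). All 6 samples carried Kdm2b fl/fl alleles, in which an exon for most of the ZF-CxxC DNA-binding domain of KDM2B lies between loxP sites, and, by the methods of the study, a tamoxifen-inducible Cre expressed from Rosa26. Those methods also state that the floxed allele was made in MS12 ESCs and that the fl/fl Cre lines were then raised from a mating of mice. The cells came from passages p10-p20, were grown on mouse fibroblast feeders and were settled overnight without feeders before treatment. The methods of the study call the replicates biological but do not say how far apart they were grown, and the p-values measure only the spread between these samples. None of the 6 samples had the Cre without the floxed alleles under tamoxifen, so that effects of the drug and of the deletion cannot be told apart.

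H3K9 methylation marks silent chromatin. SUV39H1 and SUV39H2 place the trimethyl mark at pericentric repeats, EHMT1 (GLP) and EHMT2 (G9a) work as a pair that places the dimethyl mark, and SETDB1 is brought by TRIM28 (KAP1) and KRAB zinc finger proteins to retroviral elements and imprinted regions. HP1β (Cbx1), HP1γ (Cbx3) and HP1α (Cbx5) bind the mark through a chromodomain. In ESCs this machinery keeps endogenous retroviruses and many germline genes silent. Its mark differs from those of the polycomb complexes that KDM2B recruits to CpG islands. The comparison asks whether the transcripts of this machinery differed after removal of the KDM2B ZF-CxxC domain.

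Groups follow the titles of the samples. File names give the reverse assignment in all 6 cases, and if that were right each difference described here would have the opposite sign and the same size. Kdm2b itself had 27.0, 21.5 and 27.7 FPKM in untreated replicates 1, 2 and 3 and 19.9, 21.9 and 25.0 FPKM in tamoxifen replicates 1, 2 and 3. FPKM is the number of fragments scaled to the length of the transcript and to the mapped fragments of the library. Because reads from all exons enter these values, the loss of the floxed exon cannot be read from them, and they do not check the labels. Sequencing depth, read from the steps that single fragments leave in low values, was 0.654 to 0.954 of that of untreated replicate 1 in the other samples. Within each replicate number the tamoxifen sample was the shallower one. Relative depth was 0.792, 0.877 and 0.654 in tamoxifen and 1, 0.954 and 0.766 in untreated replicates 1, 2 and 3. The part of depth in the differences between the groups was not tested. In bulk RNA, fewer cells of a type and less RNA per cell cannot be told apart.

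KDM2B binds DNA with nonmethylated CG dinucleotides, and so the 250 bases before each gene start were searched for CG. All 9 genes had between 11 and 26 CG in this window, with a median of 17, against a median of 9 over 19360 genes. Of the 9 windows, 5 were CpG-rich (GC of at least 55% and an observed over expected CG ratio of at least 0.6), or 55.6%, against 35.2% of all windows, and 92.9% of all windows held at least 1 CG. The windows of all genes include those of genes with little or no expression in these cells, whereas the 9 were all expressed. A comparison with expressed genes alone was not made. The windows of Trim28 (chr7:13609251-13609500, plus strand), Cbx3 (chr6:51420109-51420358, plus strand) and Cbx5 (chr15:103070248-103070497, minus strand) are shown, since these genes had the largest differences between the groups. Starts are those of GENCODE vM1, which begins Cbx3 upstream of the model in the deposited tables. CG, which reads alike on both strands, is in capitals, with 17, 19 and 23 occurrences in this order.
Trim28: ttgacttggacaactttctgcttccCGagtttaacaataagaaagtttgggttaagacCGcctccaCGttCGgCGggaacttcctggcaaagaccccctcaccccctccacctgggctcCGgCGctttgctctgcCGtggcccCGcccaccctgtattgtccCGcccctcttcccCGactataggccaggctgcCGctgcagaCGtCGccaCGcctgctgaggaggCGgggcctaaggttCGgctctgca
Cbx3: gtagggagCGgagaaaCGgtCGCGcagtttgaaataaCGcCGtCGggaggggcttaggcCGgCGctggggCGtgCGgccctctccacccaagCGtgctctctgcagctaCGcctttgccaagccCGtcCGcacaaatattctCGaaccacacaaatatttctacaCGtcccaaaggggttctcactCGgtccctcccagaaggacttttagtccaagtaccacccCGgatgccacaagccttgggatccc
Cbx5: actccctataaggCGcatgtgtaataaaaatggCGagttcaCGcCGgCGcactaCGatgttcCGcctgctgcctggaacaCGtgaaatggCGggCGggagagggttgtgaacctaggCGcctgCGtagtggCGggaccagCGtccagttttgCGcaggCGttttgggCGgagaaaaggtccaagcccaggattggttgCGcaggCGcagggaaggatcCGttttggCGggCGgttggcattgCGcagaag
The presence of CG describes the sequence and does not show binding of KDM2B, for which no values were analysed here.

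Each of the 9 genes was expressed in each sample, and all passed the filter of at least 0.5 FPKM in at least 3 samples that left 12997 genes for testing. Trim28 was the highest, with 301 to 540 FPKM over the 6 samples, and its mean lay above that of 99.3% of the genes tested. Cbx3 followed with 70.9 to 150 FPKM, Cbx1 with 67.4 to 123 FPKM and Cbx5 with 29.0 to 65.9 FPKM. Among the methyltransferases Ehmt2 ranged from 30.3 to 42.1 FPKM, Setdb1 from 24.1 to 35.0, Ehmt1 from 14.5 to 20.7, Suv39h1 from 13.0 to 16.3 and Suv39h2 from 7.65 to 12.9. The ranges of Trim28 and Cbx3, of Cbx1 and Cbx5, of Setdb1 and Ehmt1, and of Suv39h1 and Suv39h2 did not overlap. Neighbours with overlapping ranges were Cbx3 and Cbx1, with Cbx3 higher in 5 of 6 samples, Cbx5 and Ehmt2, also ordered alike in 5 of 6, and Ehmt2 and Setdb1, ordered alike in 3 of 6. Ehmt1 was above Suv39h1 in 6 of 6 samples although their ranges overlapped. Even the lowest of the 9, Suv39h2, had a mean above that of 51.4% of the genes tested.

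**Figure D1:**
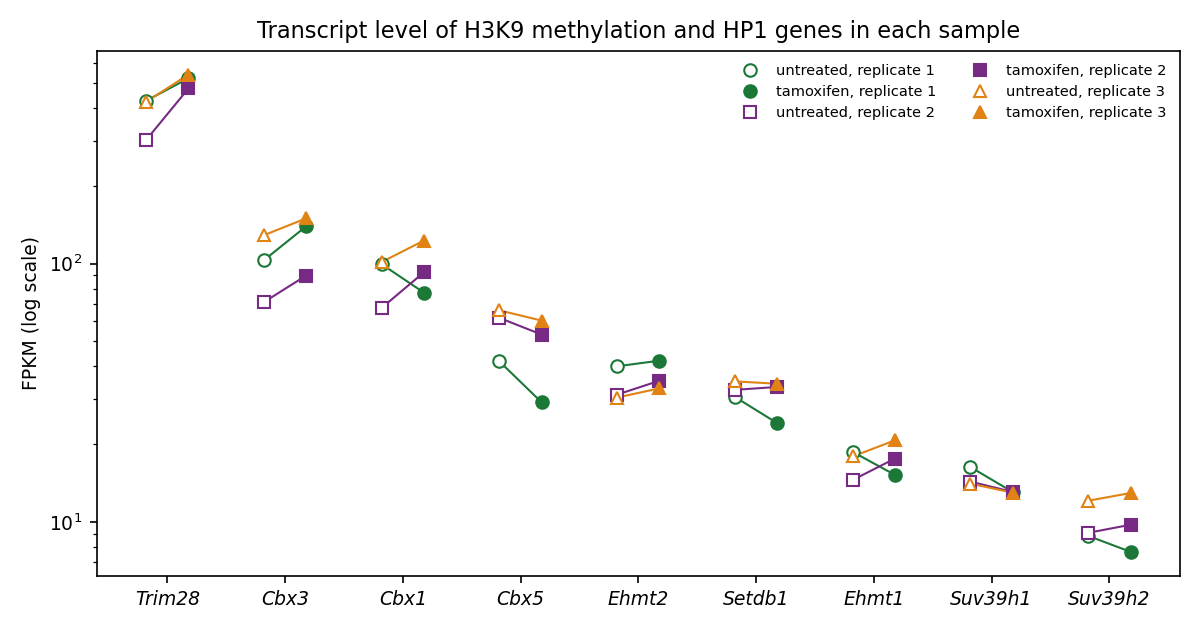
FPKM (log scale) of the 9 genes in each of the 6 samples, ordered by mean level, with open symbols for untreated samples, filled symbols for tamoxifen samples and a line joining samples of the same replicate number. Trim28 lies between 301 and 540 FPKM, above the others, and its 3 tamoxifen samples lie above its 3 untreated samples.

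Trim28 was the gene with the largest difference between the groups. It lies at chr7:13609501-13616381 on the plus strand of mm9, the build of all positions given, and encodes the scaffold that links KRAB zinc finger proteins to SETDB1 and HP1. Its FPKM was 428, 301 and 424 in untreated replicates 1, 2 and 3 and 522, 477 and 540 in tamoxifen replicates 1, 2 and 3. The lowest tamoxifen sample was above the highest untreated sample, and the smallest level was that of untreated replicate 2. The mean was 384 ± 71.8 FPKM (SD, n = 3) in untreated and 513 ± 32.4 FPKM (SD, n = 3) in tamoxifen samples, a log2 fold change of 0.43 (SE 0.28) or 1.35-fold. Without untreated replicate 2 it was 0.27, and leaving out any other single sample gave 0.40 to 0.52. With limma and Benjamini-Hochberg adjustment over all genes, the adjusted p was 0.999. Within replicate numbers 1, 2 and 3 the log2 difference was 0.29, 0.66 and 0.35. In the fit with number as a block, the SE was 0.11 and the limma adjusted p was 0.048, just past the threshold of 0.05. This call was lost with the block and quantile normalization (log2 fold change 0.31, limma adjusted p = 0.16), with the block and scaling to equal sums without loci under 300 bp (0.35, adjusted p = 0.061), and in the block without both samples of number 2 (0.32, adjusted p = 0.24) or of number 3 (0.48, adjusted p = 0.065). It was kept in the block without both samples of number 1 (0.51, limma adjusted p = 0.030).

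None of the 9 genes passed the threshold without the block, 0 in limma after adjustment and 0 at an unadjusted p under 0.05, which 623 genes, or 4.79% of all, reached. After adjustment, over all genes 0.0231% were called higher and 0.00769% lower. With the block 1 of 9, Trim28, was called higher and 0 lower, against 4.33% and 6.06% of all genes, or 10.4% in either direction. Of all calls with the block 41.7% were higher, but 56.3% after scaling to equal FPKM sums and 26.7% after such scaling without loci under 300 bp. At an unadjusted p under 0.05, 3 of 9 passed with the block (Trim28, Cbx3 and Cbx5), against 29.8% of all genes. The groups did not overlap for 2 of the 9 genes, Trim28 and Suv39h1, against 8.49% of all genes, 3.09% with tamoxifen above and 5.4% with tamoxifen below. The direction was the same within all 3 replicate numbers for 5 of the 9, higher for Trim28, Cbx3 and Ehmt2 and lower for Cbx5 and Suv39h1, and such agreement was seen for 53% of all genes, 24.8% higher and 28.2% lower. The median log2 fold change was 0.06 over the 9 genes and −0.02 over all genes tested. The median size of the log2 difference was 0.12 over the 9 genes and 0.20 over all genes.

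**Figure D2:**
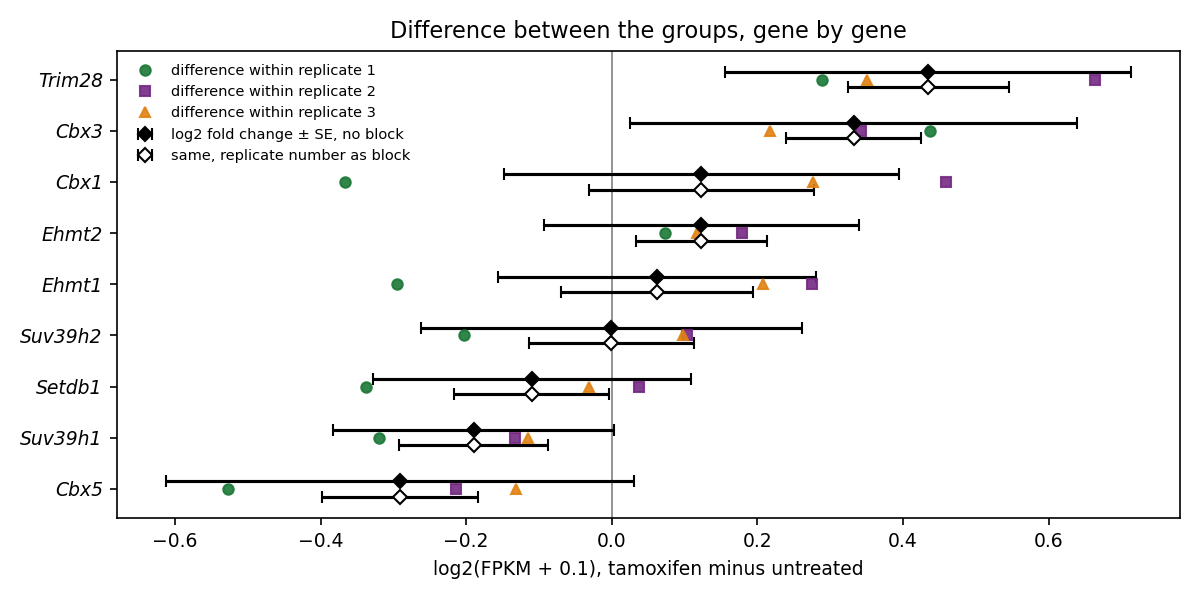
Log2 difference of FPKM + 0.1, tamoxifen minus untreated, for the 9 genes. Diamonds with bars give the log2 fold change ± SE from limma without (filled) and with (open) the number as a block, and coloured symbols give the difference within each replicate number. Trim28, Cbx3 and Ehmt2 lie right of 0 in all 3 replicate numbers and Cbx5 and Suv39h1 lie left of it.

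Of the SUV39H enzymes, Suv39h1 (chrX:7638297-7651886, minus strand) had 16.3, 14.3 and 14.1 FPKM in untreated and 13.0, 13.0 and 13.0 FPKM in tamoxifen replicates 1, 2 and 3. Each tamoxifen sample was below each untreated sample, and the tamoxifen samples were almost equal, at 13.0 ± 0.045 FPKM (SD, n = 3) against 14.9 ± 1.23 FPKM (SD, n = 3) in untreated samples. The log2 fold change was −0.19 (SE 0.19, limma adjusted p = 0.999), with a 95% interval of the fold from 0.646 to 1.19. It was −0.12 without untreated replicate 1 and −0.089 after scaling to equal FPKM sums. With number as a block, the SE was 0.10, the 95% interval 0.744 to 1.03 and the limma adjusted p 0.25. Suv39h2 (chr2:3373087-3392258, minus strand) had 8.82, 9.06 and 12.1 FPKM in untreated and 7.65, 9.74 and 12.9 FPKM in tamoxifen replicates 1, 2 and 3. Its order followed the replicate numbers in both groups, and its log2 fold change was −0.00040 (SE 0.26), with a 95% interval of the fold from 0.661 to 1.51. For Suv39h2 the fit with number as a block gave an SE of 0.11 and an interval of 0.832 to 1.20. The log2 ratio of Suv39h1 to Suv39h2 was 0.59 ± 0.34 (SD, n = 3) in untreated and 0.40 ± 0.38 (SD, n = 3) in tamoxifen samples, a difference of −0.19. This difference was smaller than the SD of either group. A two-sided exact permutation test that left the pairing aside gave p = 0.6, and 1 after adjustment over 5 measures of paralog balance. The difference had the same sign within all 3 replicate numbers (exact permutation of signs, p = 0.25, the smallest that 3 pairs allow). Without tamoxifen replicate 3 it was 0.0066.

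The differences of the G9a and GLP genes were small. Ehmt2, which encodes G9a (chr17:35035444-35050992, plus strand), had 40.0, 31.1 and 30.3 FPKM in untreated and 42.1, 35.2 and 32.9 FPKM in tamoxifen replicates 1, 2 and 3. It was higher in the tamoxifen sample of each number by 0.07, 0.18 and 0.12 on the log2 scale, and replicate 1 was the highest in both groups. The log2 fold change was 0.12 (SE 0.22, limma adjusted p = 0.999). On leaving out single samples it lay between 0.021 (without tamoxifen replicate 1) and 0.25 (without untreated replicate 1). With number as a block, the SE was 0.090 and the limma adjusted p was 0.39. Ehmt1, which encodes GLP (chr2:24646289-24775129, minus strand), had 18.7, 14.5 and 17.9 FPKM in untreated and 15.2, 17.6 and 20.7 FPKM in tamoxifen replicates 1, 2 and 3. Its groups overlapped and the direction differed between numbers, with a log2 fold change of 0.06 (SE 0.22). For Ehmt1 the fit with number as a block gave an SE of 0.13 and a limma adjusted p of 0.78. As a ratio, the level of Ehmt1 was 0.505 times that of Ehmt2 in untreated and 0.484 times in tamoxifen samples (geometric means, n = 3 per group). The log2 ratio differed by −0.06 (two-sided exact permutation test, p = 1). Its sign turned without untreated replicate 3 (0.053) and without tamoxifen replicate 1 (0.15).

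Setdb1, the methyltransferase that TRIM28 recruits (chr3:95127447-95161124, minus strand), had 30.5, 32.5 and 35.0 FPKM in untreated and 24.1, 33.3 and 34.3 FPKM in tamoxifen replicates 1, 2 and 3. Only tamoxifen replicate 1 lay apart from the other 5 samples, on the low side. The log2 fold change was −0.11 (SE 0.22, limma adjusted p = 0.999), and without tamoxifen replicate 1 it was 0.052. For Setdb1 the fit with number as a block gave an SE of 0.11 and a limma adjusted p of 0.52.

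Among the HP1 genes, Cbx3 (HP1γ, chr6:51420615-51433703, plus strand) had 103, 70.9 and 129 FPKM in untreated and 140, 90.0 and 150 FPKM in tamoxifen replicates 1, 2 and 3. It was higher in the tamoxifen sample of each number, by 0.44, 0.34 and 0.22 on the log2 scale, but the groups overlapped. The log2 fold change was 0.33 (SE 0.31, limma adjusted p = 0.999), and between 0.10 and 0.56 on leaving out single samples. With number as a block, the SE was 0.092 and the limma adjusted p was 0.061. The 95% interval of the fold in that fit, not adjusted for the number of genes, was 1.08 to 1.46. Cbx3 is the one gene of the 9 whose coding sequence, of 552 nt, has near-identical copies elsewhere in mm9. There were 7 such copies over more than 90% of its length, with up to 99.8% identity, so that reads may be divided among them and the level of Cbx3 is uncertain. For the other 8 genes 0 stretches of at least 300 nt with at least 95% identity were found.

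Cbx5 (HP1α, chr15:103021977-103070247, minus strand) had 41.9, 61.7 and 65.9 FPKM in untreated and 29.0, 53.1 and 60.2 FPKM in tamoxifen replicates 1, 2 and 3. It was lower in the tamoxifen sample of each number, with log2 differences of −0.53, −0.21 and −0.13, and replicate 1 was the lowest in both groups. The log2 fold change was −0.29 (SE 0.32, limma adjusted p = 0.999), with a 95% interval of the fold from 0.492 to 1.36. Without tamoxifen replicate 1 it was 0.029. In the fit with number as a block, the SE was 0.11 and the limma adjusted p was 0.12. There the 95% interval of the fold, not adjusted for the number of genes, was 0.688 to 0.971. Cbx1 (HP1β, chr11:96650450-96669954, plus strand) had 99.6, 67.4 and 101 FPKM in untreated and 77.2, 92.6 and 123 FPKM in tamoxifen replicates 1, 2 and 3. The log2 difference was −0.37 in number 1, 0.46 in number 2 and 0.28 in number 3, so that the direction differed between them. The log2 fold change of Cbx1 was 0.12 (SE 0.27, limma adjusted p = 0.999). With number as a block, its SE was 0.15 and its limma adjusted p was 0.62.

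FPKM is scaled by length, and so the 3 HP1 transcripts can be set beside each other within a sample. Their sum was 245, 200 and 296 FPKM in untreated and 246, 236 and 333 FPKM in tamoxifen replicates 1, 2 and 3. Cbx5 made up 17.1%, 30.8% and 22.3% of this sum in untreated and 11.8%, 22.5% and 18.1% in tamoxifen replicates 1, 2 and 3. Its share was lower in each replicate number, with differences of −5.32, −8.30 and −4.18 percentage points. Cbx3 made up 42.2%, 35.5% and 43.5% in untreated and 56.8%, 38.2% and 45.0% in tamoxifen samples. Its share was higher in each number, by 14.6, 2.69 and 1.51 points. Over the groups, the share of Cbx5 went from 23.4 ± 6.93% to 17.5 ± 5.39% and that of Cbx3 from 40.4 ± 4.30% to 46.7 ± 9.42% (SD, n = 3). Two-sided exact permutation tests that left the pairing aside gave p = 0.5 for Cbx5 and p = 0.4 for Cbx3. Both were 1 after adjustment, and 0.1 is the smallest p possible. The difference in the share of Cbx3 was 6.28 points, and 1.21 points without tamoxifen replicate 1, 3.83 without untreated replicate 2 and 10.5 without tamoxifen replicate 2. That of Cbx5 was −5.93 points, and −2.22 points without untreated replicate 2, −3.10 without tamoxifen replicate 1 and −9.08 without untreated replicate 1. By the signs of the 3 pairs both gave an exact permutation p = 0.25, the smallest possible. The share of Cbx1 was 36.2 ± 3.92% and 35.9 ± 4.05% (SD, n = 3; exact permutation test, p = 1). The copies of Cbx3 elsewhere in the genome bear on all 3 shares. In every sample the FPKM of Cbx1 and of Cbx3, but not that of Cbx5, also lay above the upper bound that the authors gave for it. The levels of the 3 genes may therefore not be on an equal footing.

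**Figure D3:**
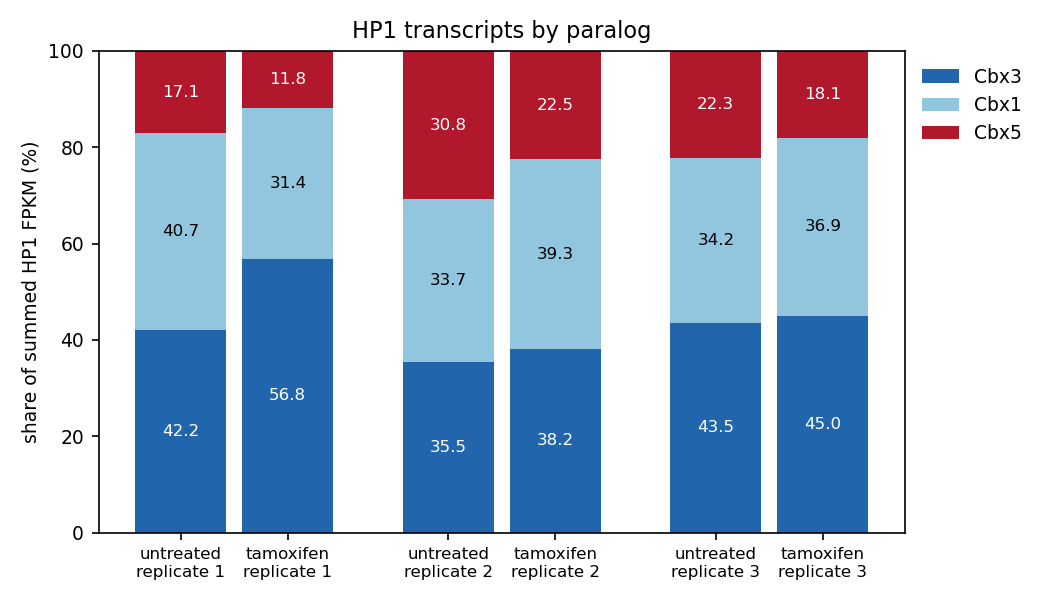
Share of Cbx3, Cbx1 and Cbx5 in the summed FPKM of the 3 HP1 genes, in percent, one bar per sample, with the samples of a replicate number side by side. The share of Cbx5 is smaller in the tamoxifen sample of each number, for example 11.8% against 17.1% in number 1.

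For most of the 9 genes the replicate number took a larger share of the differences among samples than the treatment did. The number has more levels than the treatment and so takes a larger share even without an effect. The shares are therefore not on an equal footing. On the log2 scale the number took between 17.4% (Suv39h1) and 92.4% (Suv39h2) of the sum of squares among the 6 samples, with a median of 70.4%, against 77.0% over all genes tested. The treatment took 66.7% for Suv39h1 and 60.8% for Trim28, and at most 19.2% (Cbx3) for the other 7 genes. Its median over all genes was 10.6%. Number 1 was the one apart for Cbx5, with a mean of 35.4 FPKM against 57.4 in number 2 and 63.1 in number 3. Setdb1 was also lowest in number 1, at 27.3 FPKM against 32.9 and 34.6. Ehmt2 was highest there, at 41.1 FPKM against 33.2 and 31.6. Markers of fibroblasts, the feeder cells, were also lowest in number 1, except Acta2. The summed FPKM of 10 such genes was 103 in untreated and 126 in tamoxifen replicate 1, against 201 to 282 in the other 4 samples. In number 1, S100a4 gave 51.7 FPKM of this sum in the untreated and 39.7 FPKM in the tamoxifen sample. Acta2 had 40.1 FPKM in tamoxifen replicate 1, above 15.6 and 32.3 FPKM in tamoxifen replicates 2 and 3. The part of these markers in the differences between numbers was not tested.

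**Figure D4:**
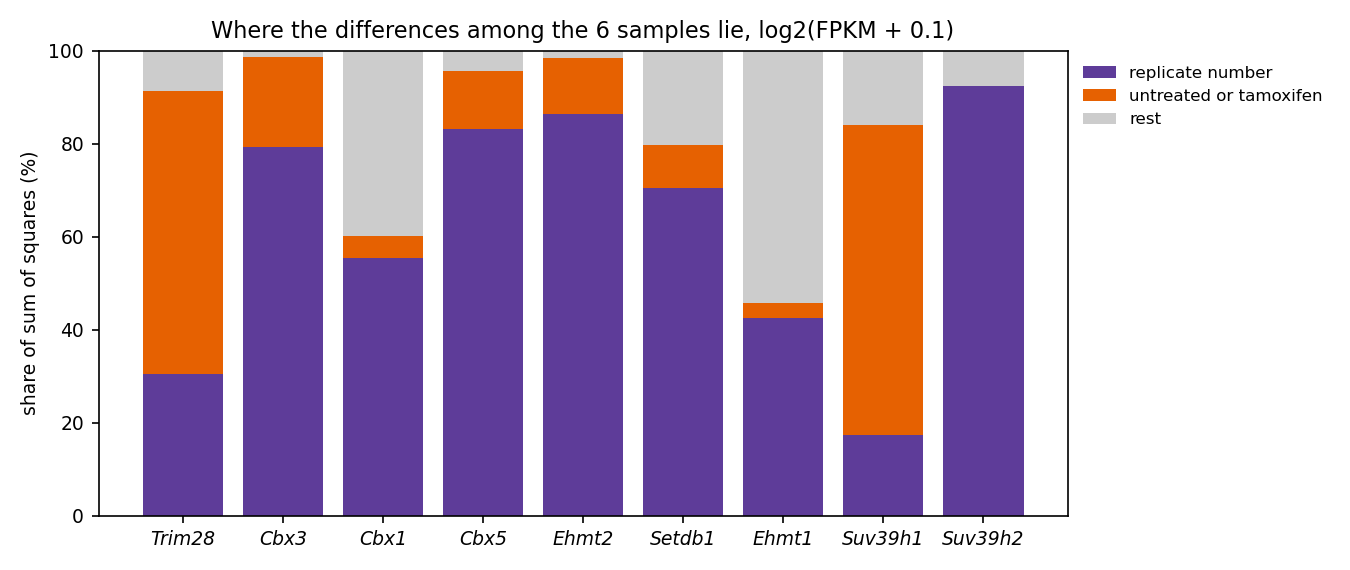
Share of the sum of squares of log2(FPKM + 0.1) among the 6 samples, in percent, that lies between replicate numbers, between untreated and tamoxifen samples, and in the rest, for each of the 9 genes. The treatment takes over 60% for Trim28 and Suv39h1 and at most 19.2% for the other 7.

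The 3 genes with the closest neighbours in the opposite direction were Cbx3, Cbx5 and Ehmt2, each with a coding gene that starts head to head within 1000 bp, an arrangement seen for 7.31% of 19363 genes. Hnrnpa2b1, which encodes an RNA-binding protein, starts 466 bp from Cbx3. It had 429, 324 and 463 FPKM in untreated and 404, 369 and 470 FPKM in tamoxifen replicates 1, 2 and 3, a log2 fold change of 0.04 (SE 0.28) beside 0.33 for Cbx3. Hnrnpa1, another RNA-binding protein gene, starts 698 bp from Cbx5. It had 134, 88.2 and 98.5 FPKM in untreated and 195, 145 and 90.2 FPKM in tamoxifen replicates 1, 2 and 3, and its log2 fold change of 0.38 (SE 0.32) had the opposite sign to that of Cbx5. C2, a complement gene, starts 17 bp from Ehmt2 in the annotation and had 1.74, 1.14 and 0.907 FPKM in untreated and 1.32, 0.844 and 0.531 FPKM in tamoxifen replicates 1, 2 and 3. It was lower in the tamoxifen sample of each number, with a log2 fold change of −0.48 (SE 0.40) that had the opposite sign to that of Ehmt2. None of these neighbours passed the threshold in either limma fit. In the deposited models Setdb1 also overlaps Cers2, Suv39h2 overlaps Dclre1c and Cbx1 overlaps Gm11517. The strand setting of the counting is not given in the sources used here, and so reads of such pairs may be mixed.

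Other genes of the pathway were taken from lists written from general knowledge. A list of 13 genes held cofactors of the H3K9 enzymes and some further H3K9 methyltransferase genes. All 13 were tested and 0 were called in either limma fit (0 at an unadjusted p under 0.05 without the block). Their median log2 fold change was −0.02, equal to that of all genes. Of 16 genes of the HUSH complex and HP1 partners, 0 were called in limma without the block (0 at an unadjusted p under 0.05). With the block 2 were called, 1 higher and 1 lower, against 10.4% of all genes in either direction. The median of the list was −0.02. Chaf1b, a subunit of the chromatin assembly factor that binds HP1, had 55.7, 24.9 and 32.5 FPKM in untreated and 68.7, 38.5 and 42.3 FPKM in tamoxifen replicates 1, 2 and 3 (log2 fold change 0.44, limma adjusted p = 0.037 with the block). Lrif1, which encodes an HP1-binding protein, had 5.27, 7.63 and 10.9 FPKM in untreated and 3.62, 5.49 and 7.26 FPKM in tamoxifen samples (log2 fold change −0.53, limma adjusted p = 0.028 with the block). For both genes the groups overlapped and the direction was the same in all 3 numbers, as for 53% of all genes. Of 11 H3K9 demethylase genes, 10 were tested and 0 were called in either fit (0 at an unadjusted p under 0.05 without the block), with a median of −0.03.

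A further list held 12 genes that H3K9 methylation is known to silence in ESCs or in other cells, although not all were silent here. Bex1, one of them, had 209 to 420 FPKM over the 6 samples. Of these 12, 6 were tested, and 0 were called without the block (2 at an unadjusted p under 0.05, against 4.79% of all genes). With the block 2 were called, in opposite directions, against 10.4% of all genes. The median log2 fold change was −0.07. Dazl, a germline RNA-binding protein gene, had 2.29, 1.76 and 2.68 FPKM in untreated and 5.16, 3.16 and 5.03 FPKM in tamoxifen replicates 1, 2 and 3. Each tamoxifen sample was above each untreated sample, with a log2 fold change of 0.95 (SE 0.30, limma adjusted p = 0.67, and 0.010 with the block). Cdx2, a trophectoderm transcription factor gene, had 1.82, 0.816 and 1.14 FPKM in untreated and 0.407, 0.433 and 0.494 FPKM in tamoxifen samples. Its log2 fold change was −1.26 (SE 0.37, limma adjusted p = 0.61, and 0.031 with the block), again with no overlap of the groups. Magea2, Magea3 and Magea5, of the Mage-a family, were listed at 0 in all 6 samples.

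**Figure D5:**
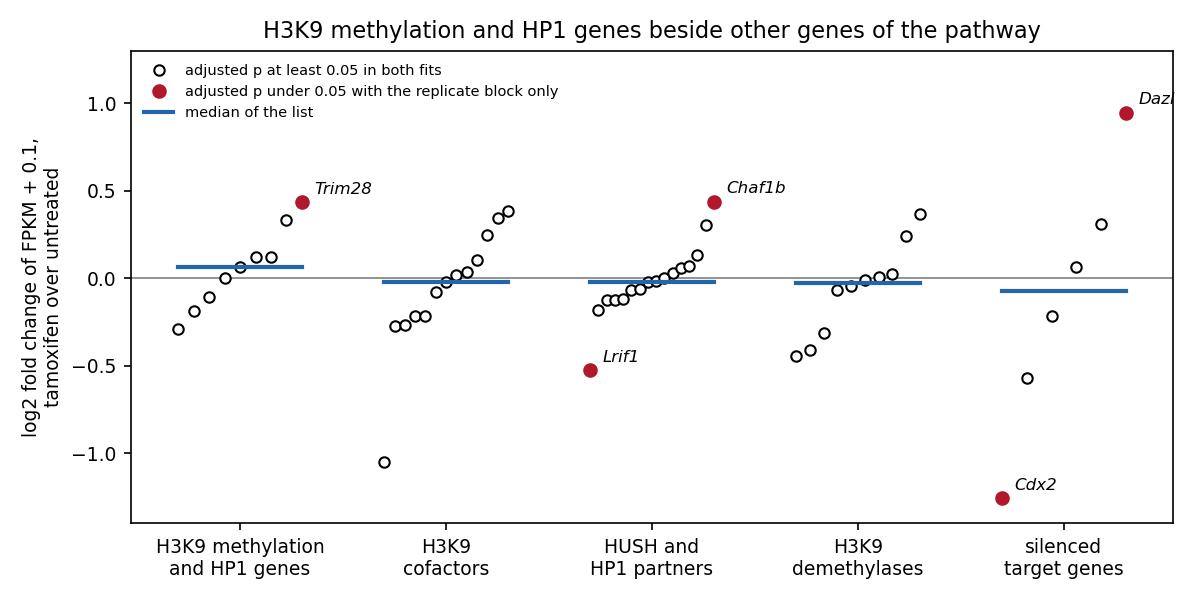
Log2 fold change (FPKM + 0.1, tamoxifen over untreated) of each tested gene in 5 lists, with the list's median as a line and filled points for genes with an adjusted p under 0.05 in limma with the replicate block. The medians lie between −0.07 and 0.06, and the filled points are Trim28, Chaf1b, Lrif1, Dazl and Cdx2.

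All 8 ESC marker genes examined were expressed, with a summed level of 3717, 2703 and 2831 FPKM in untreated and 5238, 3225 and 2982 FPKM in tamoxifen replicates 1, 2 and 3. The sum was higher in the tamoxifen sample of each number, but most of it was Dppa5a. This gene had 2221, 1401 and 1535 FPKM in untreated and 3534, 1795 and 1582 FPKM in tamoxifen replicates 1, 2 and 3. Of the 8 genes, 4 were higher and 0 lower in all 3 numbers, against 24.8% and 28.2% of all genes. In either limma fit 0 of the 8 were called (0 at an unadjusted p under 0.05 without the block). Nanog, a pluripotency factor gene named here after its values were seen, had 188, 104 and 153 FPKM in untreated and 203, 194 and 205 FPKM in tamoxifen replicates 1, 2 and 3. Its groups did not overlap, as for the 3.09% of all genes with tamoxifen above. Its log2 fold change was 0.48 (SE 0.27, limma adjusted p = 0.999, and 0.079 with the block). Of the 8 markers, only Klf4 (−0.00031) and Tdgf1 (−0.072) had log2 fold changes below 0. Fibroblast markers were present too, with none of the 10 at 0 in all samples and a summed level of 103 to 282 FPKM in untreated and 126 to 228 FPKM in tamoxifen samples. Of 9 markers of differentiated lineages, among them Cdx2, 7 were tested. With the block 6 of these were called lower in limma, against 6.06% of all genes. Without it 0 were called (5 at an unadjusted p under 0.05, against 4.79% of all genes). Their summed level was 36.8 to 39.4 FPKM in untreated and 19.1 to 25.9 FPKM in tamoxifen samples, with no overlap of the groups. Trim28 and Suv39h1 also separated the groups, and the part of these ESC and differentiation markers in that was not tested.

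Over the 6 samples, the genes whose log2 FPKM profile was most like the mean profile of the 9 genes were Exo1, a DNA repair exonuclease gene, with a Pearson r of 0.997, Raver1 with 0.996 and Dnajc6 with 0.994. They were the highest of 12988 genes searched with 6 samples each, and the samples share the effects of the replicate number. The 9 genes did not share a common profile. Their correlations with each other ran from −0.95 (Ehmt2 with Cbx5) to 0.99 (Ehmt1 with Cbx1). Likeness to the mean is therefore not likeness to each of the 9. Exo1 had 12.3, 10.5 and 13.5 FPKM in untreated and 10.8, 12.3 and 14.9 FPKM in tamoxifen replicates 1, 2 and 3.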

How the data were processed

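The authors aligned paired-end reads of directional polyA+ libraries to mm9 with Tophat2 0.5 and obtained values with cuffdiff 2.1.1 on refGene models. They deposited FPKM values, 1 table per sample, with bounds for each value. The bounds were not used as errors. They excluded the FPKM itself, which lay above the upper bound, for 3 of the 9 genes (Trim28, Cbx1 and Cbx3) in every sample. For the other 6 genes their half-width was 2.21% to 10.0% of the FPKM. No read counts were used. ChIP-seq samples were not analysed here.

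FPKM were summed by gene name and 6 names with a failed value were left out. Groups of 3 were compared on log2(FPKM + 0.1), a scale that understates changes of low genes, with limma 3.58.1 in R 4.3.3 (eBayes with trend, Benjamini-Hochberg adjustment, threshold 0.05) for genes of at least 0.5 FPKM in at least 3 samples. The fit was tested on simulated data. Samples with the same number deviated together from their group means (correlations across genes of 0.544, 0.605 and 0.506), so that the number, taken from the titles, pairs the samples. Paralog balance was compared by exact permutation. Upstream windows and coding sequences came from NCBIM37 (mm9) with GENCODE vM1, and copies were searched with blastn 2.17.0. Other steps ran in Python 3.11.15 (scipy 1.17.1, numpy 2.4.6, pandas 2.3.3). Loci under 300 bp held 23.9% to 67.7% of the FPKM sum of a sample, which bears on scaling to equal sums. Alternatives were other pseudocounts, scalings, filters and variance models, the highest row per name, the replicate block, and leaving out samples.

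The 9 genes, the other lists and the alternatives were chosen with earlier results of these data known. Genes named were the 9, genes of the pathway lists called in either fit, head-to-head neighbours and the 3 most similar profiles. Overlapping genes, 3 Mage-a genes, Bex1, Nanog, Dppa5a, Klf4, Tdgf1, S100a4 and Acta2 were named after their values were seen.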

Additional observations from a re-analysis of the deposited data

How the results depend on the processing

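Of the planned choices, the block was the one that changed a call among the 9 genes. The replicate block gave 563 higher and 787 lower genes, against 3 and 1 without it, and 1 of the 9 genes (Trim28, log2 fold change 0.43) was called higher. It changed no other call among the 9. It added 1 higher and 1 lower HP1 partner (Chaf1b, Lrif1), and 1 higher and 1 lower silenced gene (Dazl, Cdx2). Without a block, a pseudocount of 1 gave 0 lower genes and at least 1 FPKM in all samples gave 0 higher and 0 lower. Leaving out single samples gave 0 to 5 higher and 0 to 7 lower genes and 0 calls among the 9 genes.

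Further settings were added after the data were seen. The block gave 450 higher and 349 lower genes with TPM scaling, 558 and 586 with quantile normalization, 418 and 1150 with TPM without loci under 300 bp, 659 and 931 with a pseudocount of 1, and 810 and 1038 with at least 1 FPKM in all samples. Without number 1, 2 or 3 it gave 785, 45 and 444 higher and 1078, 66 and 578 lower. The cause of these shifts was not tested. Trim28 was called with the block and TPM scaling (0.54), a pseudocount of 1 (0.43), the stricter filter (0.43) and without number 1 (0.51). Cbx3 (0.33) joined it with the stricter filter and Cbx1 (0.37) without number 1, so that these 4 settings called 1 or 2 of the 9. The other 4 (quantile normalization, TPM without loci under 300 bp, without number 2, without number 3) called 0. In the lists these added settings gave at most 1 call in each direction, but 2 higher HP1 partners with the stricter filter.

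Trim28, Cbx3, Ehmt2 and Suv39h1 kept their sign under all 25 alternatives, with ranges of 0.27 to 0.54, 0.10 to 0.56, 0.021 to 0.25 and −0.28 to −0.089. Cbx5 ranged from −0.50 to 0.029 on leaving out single samples, above 0 only without tamoxifen replicate 1. Ehmt1 turned to −0.025 with TPM without loci under 300 bp, with or without the block, to −0.044 and −0.010 in the block without number 2 or 3, and ranged from −0.051 to 0.17 on leaving out single samples. Setdb1 ranged from −0.20 to 0.052 on leaving out single samples and was 0.0033 in the block without number 1. Suv39h2, at 0 within error, was 0.0010 with a pseudocount of 1, 0.10 with TPM scaling, 0.052 with quantile normalization (each with or without the block), 0.10 in the block without number 1 and −0.19 to 0.18 on leaving out single samples. Cbx1 was −0.045 in the block without number 2 and −0.069 to 0.28 on leaving out single samples. On leaving out single samples, the tamoxifen minus untreated difference ranged from −2.05 to 1.91 points for the share of Cbx1, 1.21 to 10.5 for Cbx3 and −9.08 to −2.22 for Cbx5. It ranged from −0.25 to 0.15 for the log2 ratio of Ehmt1 to Ehmt2 and from −0.38 to 0.0066 for that of Suv39h1 to Suv39h2. With 3 samples a group, the exact tests cannot go below p = 0.1. The absolute number of fragments behind each FPKM is unknown.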
